A study of Rattus norvegicus with 12 samples.

Results

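Lymphocyte miRs were followed in extracellular vesicles (EVs) from the serum of rats with an injured Achilles tendon. The set held 7 mature rat miRs out of the 426 with a count: rno-miR-150-5p, rno-miR-342-3p, rno-miR-155-5p and the 4 members of the miR-181 family (rno-miR-181a-5p, rno-miR-181b-5p, rno-miR-181c-5p and rno-miR-181d-5p), written below without the prefix for rat. They were chosen by name, for their known roles in lymphocytes, and all 7 had counts. The question was whether rapamycin, an immunosuppressant that acts on lymphocytes, altered their level in circulation.

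Small RNA was sequenced from 12 female wild-type Wistar rats aged 12 weeks, in 4 groups of 3: vehicle or rapamycin, each at day 7 or day 21. All 12 animals carried a needle puncture of the tendon, so no uninjured serum was available for comparison. Rapamycin was injected daily into the peritoneum at 2 mg per kg from the day after surgery. This came to 5 injections by day 7 and 19 by day 21. Vehicle animals received an equal volume of PEG and TWEEN 80 in water. The rapamycin was first dissolved in DMSO, which the study does not list in the vehicle. The sample labels give the tissue as tendon, whereas the series description and the methods give serum EVs. EVs were separated by size exclusion and were not characterised further by the study, and a lower level in such a preparation cannot tell fewer EVs of lymphocyte origin from fewer copies per EV.

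Mature miRs are short RNAs that guide Argonaute proteins to messenger RNAs, chiefly by pairing through the seed, bases 2 to 8 of the miR. miR-150 is abundant in mature B and T cells and restrains the transcription factor Myb during B cell development. miR-342 is likewise abundant in lymphocytes and lies within the gene Evl. miR-155 is induced when B cells, T cells and macrophages are activated and is processed from the transcript Mir155hg. miR-181a is high in immature thymocytes, where it raises sensitivity to antigen through the T cell receptor, but the miR-181 family is also made in many other tissues, including endothelium and brain.

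A mature sequence was found for 6 of the 7 in RefSeq (rat build GRCr8), and these sequences are shown because they determine which reads can be told apart. Seeds are in capitals and all sequences run 5′ to 3′.

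miR-342-3p: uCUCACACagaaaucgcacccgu

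miR-155-5p: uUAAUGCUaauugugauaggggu

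miR-181a-5p: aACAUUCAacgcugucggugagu

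miR-181b-5p: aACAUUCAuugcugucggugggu

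miR-181c-5p: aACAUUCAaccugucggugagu

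miR-181d-5p: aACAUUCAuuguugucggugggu

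The seed ACAUUCA was shared by the 4 miR-181 members and by none of the other mature rat miRs among the 693 names in that table. The seeds of miR-342-3p and miR-155-5p were each held by no other name. Counted from the 5′ end, miR-181b-5p and miR-181d-5p differed by 1 substitution (C12U, miR-181b-5p first), and miR-181a-5p and miR-181c-5p by 1 deleted base. The study's mapping allowed 1 mismatch to miRBase, which covers the substitution. Counts of miR-181b-5p and miR-181d-5p may therefore be split unevenly between near-identical sequences and are uncertain to that extent. A deleted base is not a single mismatch, and whether reads of miR-181a-5p and miR-181c-5p were exchanged was not tested. In the RefSeq annotation Mir181c and Mir181d lay next to each other beside Nanos3, and Mir181a-1 and Mir181a2 each lay next to a copy of Mir181b, the latter pair inside Nr6a1.

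Libraries were shallow. Between 16327 and 95834 counts per library fell on miRs (median 30411.5), and a floor of 3 counts corresponded to 31.3 to 184 CPM (the usual depth-scaled count, here over miRs alone). A pair of libraries, vehicle day 7 replicate 1 and rapamycin day 7 replicate 2, stood apart and were absent from the read table in the supplement of the study. The supplement shows its miR analysis for as many samples as that table lists and gives no reason. Synthetic spike-ins took 13.6% and 24.3% of their counts, against 52.5% to 71.8% in the other 10. Their summed level of 5 erythrocyte miRs (27070 and 60308 CPM) was below the 114630 to 197930 CPM of the 10 listed libraries, as was that of the myeloid and platelet miR-223 arms (1885 and 3469 against 9653 to 16803 CPM), whereas muscle miR-133a-3p reached 1026 counts in the unlisted vehicle library and at most 46 elsewhere. Results are therefore given for all 12 libraries and again for the 10 listed ones, and the part of these markers in the results was not tested. At day 7 the erythrocyte sum ran from 27070 to 156310 CPM with vehicle and from 60308 to 143860 CPM with rapamycin. Of the 21 erythrocyte, myeloid and platelet, endothelial, liver, muscle and fibroblast miRs listed as markers, 1 (miR-133a-3p) was called at day 7 with all 12 libraries and 1 (miR-122-5p, of liver) with the 10 listed ones.

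Levels below are CPM scaled by the trimmed mean of M-values (TMM) over all 12 libraries. They are shares of the sequenced miRs rather than amounts per volume of serum. Together the 7 miRs took 3.07% to 4.73% of the miR counts in a library. miR-181a-5p was the most abundant, with a median of 18167 CPM and rank 12 among the 426 miRs. It was followed by miR-181d-5p at 5392 CPM, miR-150-5p at 4743, miR-181c-5p at 4036, miR-181b-5p at 3653, miR-342-3p at 2294 and miR-155-5p at 175 CPM, rank 138. The lowest miR-181a-5p value, 10240 CPM, exceeded every library of the others except the 2 highest values of miR-150-5p, and the highest miR-155-5p value, 404 CPM, lay below every value of the other 6. From miR-181d-5p down to miR-342-3p, neighbours in this order overlapped across libraries, so their order is not resolved.

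At day 7, miR-150-5p had a lower mean level with rapamycin, in groups that overlapped. Its level in replicates 1 to 3 was 1441, 9517 and 14574 CPM with vehicle and 3429, 1711 and 2045 CPM with rapamycin. The 2 listed vehicle animals were higher than every rapamycin animal, and the unlisted vehicle animal was lower than all 3, so the groups overlapped. Group means were 8511 ± 6624 CPM (SD, n = 3) with vehicle and 2395 ± 911 CPM with rapamycin. In edgeR's quasi-likelihood test the log2 fold change was -1.83 (SE 0.52, Benjamini-Hochberg adjusted p = 0.0294). It was 1 of 3 miRs called among the 128 above the abundance cutoff, or 2.34%, and all 3 were lower. That cutoff is set where it gives the most calls, and over all 426 miRs the adjusted p of miR-150-5p was 0.0977.

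**Figure D1:**
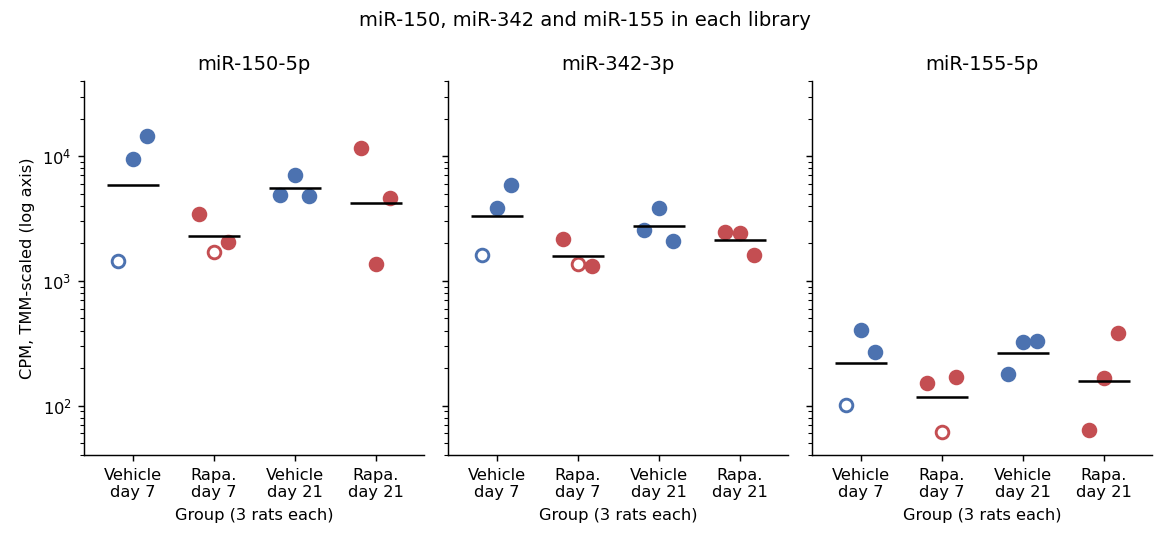
Level of miR-150-5p, miR-342-3p and miR-155-5p in each library, as TMM-scaled CPM on a log axis, by group with 3 rats each. Blue points are vehicle, red points rapamycin, open points the 2 unlisted libraries and bars the mean of the log values. At day 7 the filled vehicle points of miR-150-5p (9517 and 14574) lie above all rapamycin points (1711 to 3429), while the open vehicle point (1441) lies below them.

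In the 10 listed libraries the contrast was sharper. At day 7 these hold 2 animals per group, and the vehicle animal left out (1441 CPM) was below every rapamycin animal. Between those groups 21 of the 75 miRs with 10 or more counts in every listed library were lower without overlap (28.0%). For miR-150-5p the log2 fold change was -2.07 (SE 0.45, edgeR adjusted p = 0.0003). It also passed over all 365 miRs with a count in the listed libraries (adjusted p = 0.0016). Here 7 of the 70 miRs above the cutoff were called (10%), of which 2 belonged to the lymphocyte set, miR-150-5p and miR-342-3p. Scaled to the calibrator spike-ins instead of to the other miRs, miR-150-5p stood at 22.9, 14.0 and 20.1 counts per 1000 calibrator counts with vehicle and at 5.17, 11.9 and 2.20 with rapamycin. On that scale the day 7 groups did not overlap even with the unlisted libraries included. Of the 74 miRs with 10 or more counts throughout, 3 were lower without overlap on that scale (4.05%). The unlisted vehicle library held 12.8 miR counts per calibrator count, against 1.58 in each other vehicle library at day 7. That ratio raises all its miRs on the calibrator scale. With calibrators as library size the median log2 fold change over all miRs was -0.81 at day 7. The value of miR-150-5p lay -0.88 from that median, against -1.68 with TMM.

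The call depended on single day 7 animals and on the tool. Without vehicle day 7 replicate 3, the highest library, the log2 fold change of miR-150-5p was -1.15 (edgeR adjusted p = 0.98). It was -1.73 without vehicle day 7 replicate 2 (adjusted p = 0.16), -1.65 without rapamycin day 7 replicate 2 (adjusted p = 0.10) and -1.74 without rapamycin day 7 replicate 3 (adjusted p = 1). Without the unlisted vehicle library it was -2.28 (adjusted p = 4.2e-05), and the direction was the same in all 12 fits with 1 library left out. It was also negative but not called with DESeq2 (-1.64, adjusted p = 1), with edgeR's filterByExpr in place of the cutoff (-1.80, adjusted p = 0.99) and with the calibrator spike-ins as library size (-1.69, adjusted p = 0.87).

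**Figure D2:**
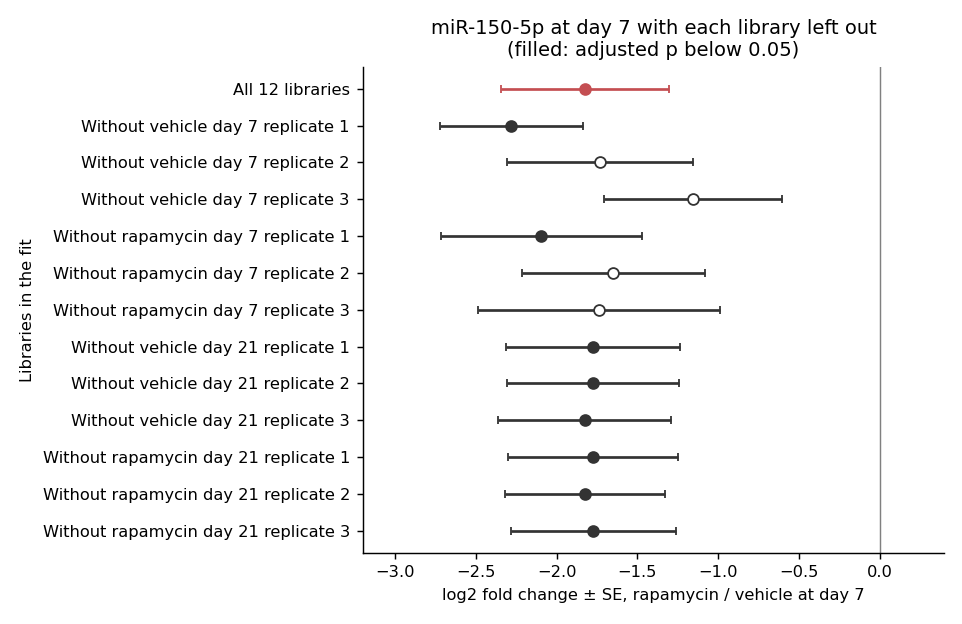
The log2 fold change of miR-150-5p at day 7, rapamycin against vehicle, with all 12 libraries (red) and with each library left out in turn (black); bars are standard errors from edgeR and filled points have an adjusted p below 0.05. All 13 estimates are negative, from -2.28 to -1.15, and 8 of the 12 fits with a library left out kept the call.

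miR-342-3p gave values in the same direction. Its level was 1609, 3837 and 5839 CPM with vehicle and 2174, 1372 and 1321 CPM with rapamycin at day 7. As for miR-150-5p, the listed vehicle animals were the highest, and the unlisted vehicle animal lay within the range with rapamycin, where for miR-150-5p it lay below it. In edgeR the log2 fold change was -1.20 (SE 0.54, adjusted p = 0.66), which did not pass with all 12 libraries. It passed narrowly in the 10 listed libraries, at -1.40 (SE 0.50, adjusted p = 0.0492), and without vehicle day 7 replicate 1 alone, at -1.50 (adjusted p = 0.0289). Over all 365 miRs the adjusted p in the listed libraries was 0.20.

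miR-155-5p was near the limit of detection. Its counts were 12, 16 and 12 with vehicle and 5, 4 and 4 with rapamycin at day 7, and 5, 8 and 8 with vehicle and 1, 4 and 9 with rapamycin at day 21. Every rapamycin count at day 7 was below every vehicle count, but depth differed as well, and as CPM the groups overlapped (101, 404 and 267 against 153, 61.7 and 170). At day 7 the log2 fold change was -0.99 (SE 0.89), and the miR fell below the abundance cutoff. A difference of that size lay close to 1 SE and was not resolved with 3 animals per group and these counts. At day 21 its values were 180, 321 and 328 CPM with vehicle and 63.4, 166 and 381 CPM with rapamycin, which overlapped.

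The 4 miR-181 members did not pass any treatment test. At day 7 miR-181a-5p stood at 17804, 20826 and 18274 CPM with vehicle and at 19103, 20812 and 15595 CPM with rapamycin. The groups overlapped almost entirely, with means of 18968 ± 1626 and 18504 ± 2660 CPM (SD, n = 3) and a log2 fold change of -0.03 (SE 0.47). Values for miR-181c-5p overlapped likewise (2069, 3357 and 4479 against 3949, 2374 and 3792 CPM), with a log2 fold change of 0.03 (SE 0.51). An SE near 0.5 leaves changes of moderate size in either direction undetected.

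miR-181b-5p was lower with rapamycin in every animal at day 7 without passing the test. It stood at 3686, 3988 and 5304 CPM with vehicle and at 2939, 3268 and 2684 CPM with rapamycin. The groups did not overlap, and it was the 1 of those 74 miRs to be lower in this way (1.35%). In the fit its log2 fold change was -0.53 (SE 0.51, edgeR adjusted p = 0.995). Scaled to the calibrator spike-ins the day 7 groups overlapped.

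miR-181d-5p, the closest relative of miR-181b-5p in sequence, varied widely between libraries at day 7 and did not pass the test. At day 7 it stood at 896, 5301 and 5393 CPM with vehicle and at 4194, 1727 and 4218 CPM with rapamycin. The lowest value in each group was the unlisted library, and among the listed ones both vehicle animals were higher than both rapamycin animals. That pattern was common in the listed libraries. Of the 75 miRs with 10 or more counts in every listed library, 21 were lower without overlap at day 7 (28.0%), including miR-150-5p, miR-342-3p, miR-181b-5p and miR-181d-5p. The fit gave miR-181d-5p a log2 fold change of -0.19 (SE 0.51) with all 12 libraries and of -0.30 (SE 0.44) with the 10 listed ones.

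**Figure D3:**
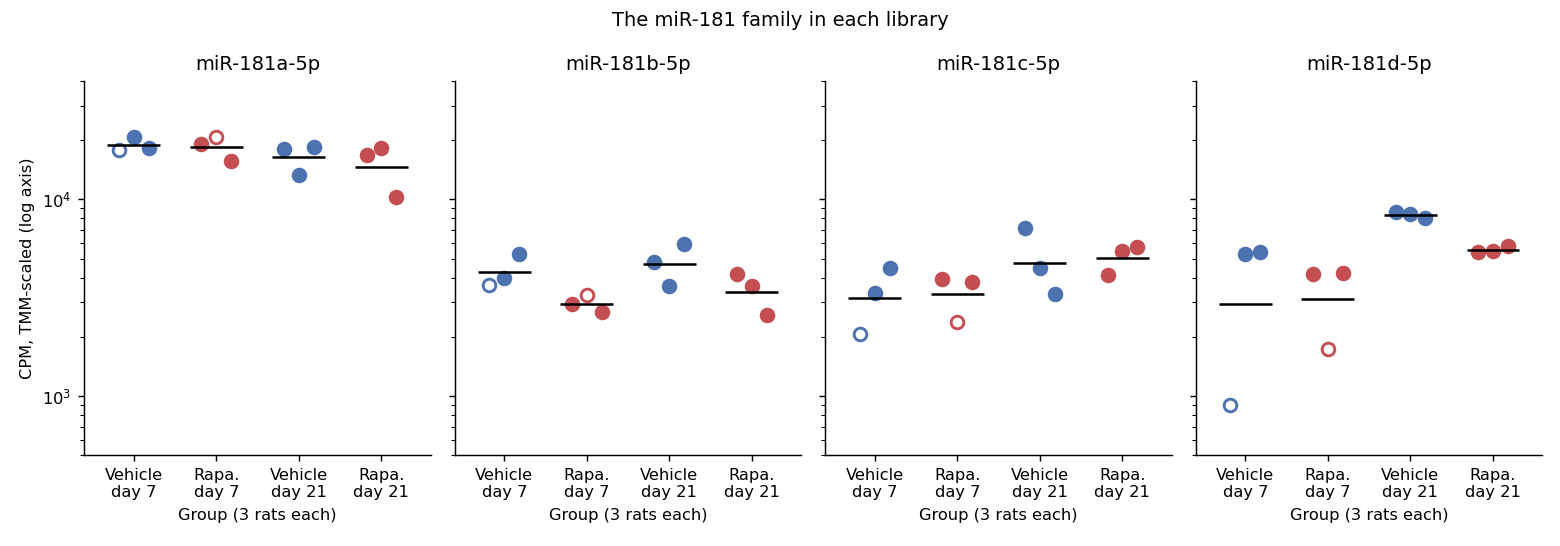
Level of miR-181a-5p, miR-181b-5p, miR-181c-5p and miR-181d-5p in each library, as TMM-scaled CPM on a log axis, by group with 3 rats each. Colours, open points and bars are as for miR-150-5p. miR-181b-5p is lower in every rapamycin library at day 7 (2684 to 3268 against 3686 to 5304) and miR-181d-5p in every rapamycin library at day 21 (5392 to 5797 against 8065 to 8616).

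At day 21 the difference in miR-150-5p was smaller than the spread between animals. It stood at 4903, 7062 and 4831 CPM with vehicle and at 11672, 1373 and 4654 CPM with rapamycin. The rapamycin animals enclosed the vehicle range on both sides, with a mean of 5900 ± 5261 CPM (SD, n = 3) against 5599 ± 1268 CPM. Its log2 fold change was 0.05 (SE 0.51), and -0.66 without rapamycin day 21 replicate 1. With all 12 libraries none of the 426 miRs was called at day 21 (0.0%), and DESeq2 called none either. An unadjusted edgeR p below 0.05 was found for 11 (2.58%), none of them in the lymphocyte set. In the 10 listed libraries 1 of the 92 miRs above the cutoff was called, let-7c-5p, which is not in the set.

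miR-181d-5p had the tightest groups of the 7 at day 21. It stood at 8616, 8386 and 8065 CPM with vehicle and at 5392, 5492 and 5797 CPM with rapamycin. All 3 rapamycin animals were lower, and the groups did not overlap on the calibrator scale either. Of those 74 miRs 9 were lower without overlap at day 21 (12.2%), or 10.8% on the calibrator scale, so this pattern was not rare among the miRs. In the fit the value was -0.59 (SE 0.51, edgeR adjusted p = 1). Rapamycin and vehicle animals overlapped at day 21 for miR-342-3p (2474, 2413 and 1608 against 2560, 3812 and 2088 CPM), miR-181a-5p (16810, 18308 and 10240 against 18061, 13241 and 18546), miR-181b-5p (4187, 3620 and 2581 against 4831, 3611 and 5936) and miR-181c-5p (4123, 5492 and 5712 against 7138, 4494 and 3316).

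**Figure D4:**
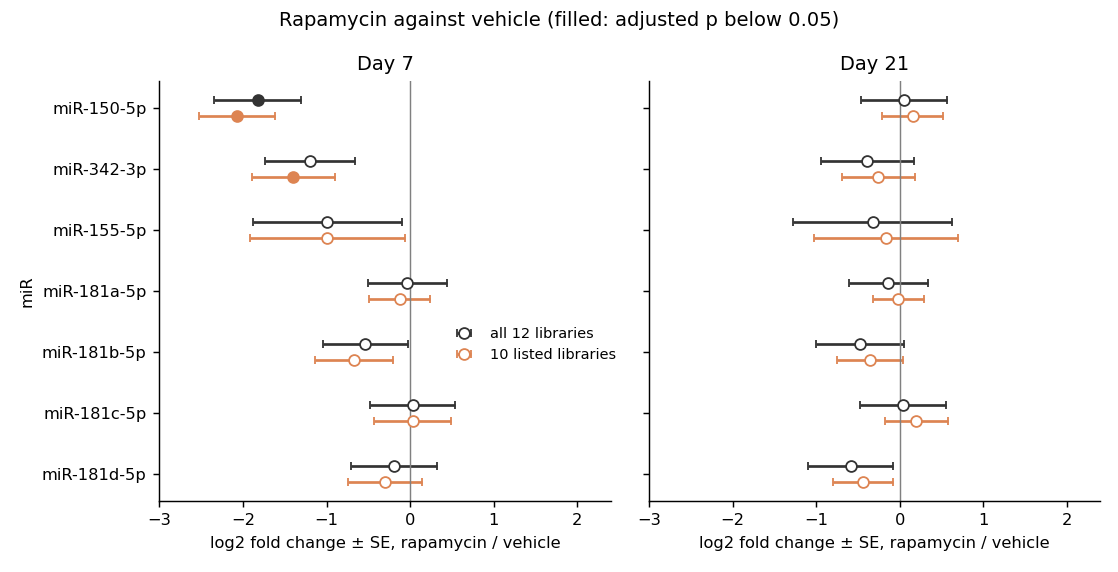
Fitted log2 fold change of each of the 7 miRs, rapamycin against vehicle, at day 7 (left) and day 21 (right), with all 12 libraries (black) and with the 10 listed libraries (orange). Bars are standard errors from edgeR and filled points have an adjusted p below 0.05: miR-150-5p at day 7 in both (-1.83 and -2.07) and miR-342-3p in the listed libraries only (-1.40).

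With both days combined and day as a block, none of the 7 was called. For miR-150-5p the log2 fold change was -0.90 (SE 0.36) and for miR-342-3p -0.81 (SE 0.38), with unadjusted edgeR p-values of 0.0136 and 0.0315 and adjusted values over all 426 miRs of 0.83 and 0.93. miR-150-5p passed there without vehicle day 7 replicate 1 (-0.99, adjusted p = 0.0405) and without rapamycin day 21 replicate 1 (-1.28, adjusted p = 0.0472). The cutoff left 26 miRs, of which 2 were called (7.69%), and only miR-181a-5p of the lymphocyte set was among the 26. The median log2 fold change of the 7 was -0.51, against -0.12 over all 426 miRs, and 6 of the 7 were negative, against 57.0% of all miRs. An exact permutation test of treatment within day, two-sided over 400 arrangements, gave p = 0.02 for miR-181b-5p (lower by a mean log2 difference of -0.49), 0.07 for miR-342-3p, 0.145 for miR-155-5p and 0.22 for miR-150-5p. After adjustment over all 426 miRs each of these was 1, and 0.005 is the smallest p the arrangements allow. Over all miRs 2.11% had an exact p below 0.05. In the 10 listed libraries the exact permutation test gave miR-181d-5p p = 0.0167 (adjusted p = 0.87), the smallest that 120 arrangements allow, and miR-181b-5p p = 0.05.

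Whether the difference at day 7 departed from that at day 21 was tested directly. For miR-150-5p the day 7 log2 fold change minus that at day 21 was -1.87 (SE 0.73, edgeR adjusted p = 0.86) with all 12 libraries, where 1 of 260 miRs was called (0.385%). In the 10 listed libraries it was -2.22 (SE 0.58, adjusted p = 0.0466), and miR-150-5p was the single miR called of 365 (0.274%). It also passed without vehicle day 7 replicate 1 (-2.47, adjusted p = 0.0132) and without rapamycin day 21 replicate 2 (-2.35, adjusted p = 0.0498). For miR-342-3p the same difference was -0.81 (SE 0.77), for miR-155-5p -0.66 (SE 1.31), and for the miR-181 family it lay between -0.06 and 0.40.

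Changes from day 7 to day 21 were tested within each treatment, and with TMM scaling of all 12 libraries none of the 7 passed in either. With the calibrator spike-ins as library size, miR-181a-5p passed with vehicle (a log2 change of -2.58, edgeR adjusted p = 0.0467, against -0.19 with TMM). On that scale the median over all miRs was itself -1.92, and miR-181a-5p lay -0.66 from it. The share of all miRs called on that scale is not given here, so the call is not read as particular to miR-181a-5p. Each day comparison holds 1 of the unlisted libraries, at day 7. With vehicle the log2 change of miR-150-5p was -0.59 (SE 0.50) in all 12 libraries and -1.09 (SE 0.38, edgeR adjusted p = 0.71) in the 10 listed ones. With rapamycin it was 1.28 (SE 0.53, adjusted p = 0.20) and 1.13 (SE 0.44, adjusted p = 0.13), and on the calibrator scale it was -0.32 (SE 1.09), the opposite sign. Without rapamycin day 21 replicate 1, which held the highest rapamycin value, the TMM value was 0.52, and without rapamycin day 21 replicate 2, which held the lowest, it was 1.76 and passed (adjusted p = 0.0268), as it did without vehicle day 7 replicate 1 (1.36, adjusted p = 0.0182). With TMM scaling of all 12 libraries 5 of 192 miRs were called with vehicle (2.6%) and 9 of 171 with rapamycin (5.26%).

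Within each treatment, every day 21 library held more miR-181d-5p, as TMM-scaled CPM, than any day 7 library. With vehicle it went from 896 to 5393 CPM at day 7 to 8065 to 8616 CPM at day 21, a log2 change of 1.14 (SE 0.51, edgeR adjusted p = 0.21). In the 10 listed libraries the log2 change was 0.65 (SE 0.39, adjusted p = 1). With rapamycin the log2 change was 0.74 (SE 0.52, adjusted p = 0.53). miR-181c-5p was also higher without overlap with rapamycin (4123 to 5712 against 2374 to 3949 CPM), at a log2 change of 0.62 (SE 0.52). Of the same 74 miRs, 4.05% were higher at day 21 without overlap with vehicle and 9.46% with rapamycin. On the calibrator scale both miRs overlapped between the days within each treatment. The unlisted day 7 libraries held 12.8 and 5.53 miR counts per calibrator count, against 0.686 to 1.58 in the other 10, and the part of this in the day comparisons was not tested.

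The make-up of the miR-181 family therefore differed between libraries. miR-181d-5p took 3.67%, 15.8% and 16.1% of the family's counts with vehicle and 13.9%, 6.13% and 16.0% with rapamycin at day 7. At day 21 it took 22.3%, 28.2% and 22.5% with vehicle and 17.7%, 16.7% and 23.8% with rapamycin. Every day 21 library lay above every day 7 library, but narrowly. The nearest shares, 16.7% at day 21 and 16.1% at day 7, rest on 132 and 242 counts of miR-181d-5p. Whether that gap exceeds counting error was not tested, and the split of reads from miR-181b-5p is uncertain. For each miR-181d-5p count there were 19.9 and 12.1 counts of miR-181a-5p in the unlisted libraries, 3.39 to 4.55 in the listed day 7 libraries and 1.58 to 3.33 at day 21. miR-181b-5p took between 9.74% and 16.6%. These shares rest on 481 to 2919 family counts per library.

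**Figure D5:**
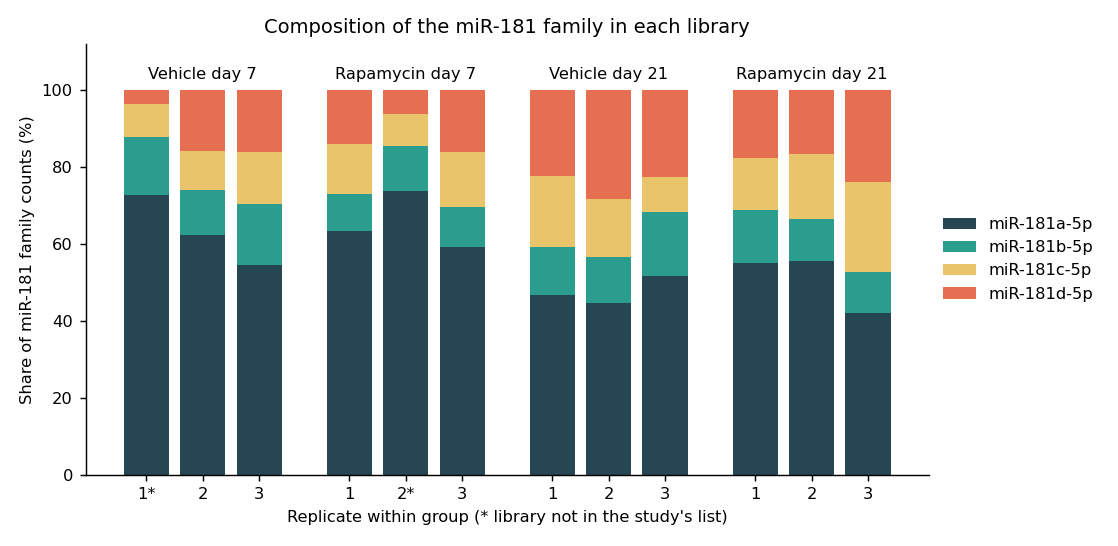
Share of miR-181a-5p, miR-181b-5p, miR-181c-5p and miR-181d-5p in the summed counts of the miR-181 family, in percent, for each library by group and replicate (asterisks mark the 2 unlisted libraries). miR-181a-5p takes 72.8% and 73.9% in the unlisted libraries and 42.1% to 63.3% in the others, and miR-181d-5p takes the least in the unlisted ones (3.67% and 6.13%).

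Across the 12 libraries miR-150-5p and miR-342-3p varied together (Pearson r of log2 CPM 0.76), and miR-150-5p was the miR most like miR-342-3p among the 73 candidates that reached 10 counts throughout. These coefficients are descriptions over libraries that include the treatment groups and share one scaling. The ratio of miR-150-5p to miR-342-3p counts was 0.896, 2.48 and 2.50 with vehicle and 1.58, 1.25 and 1.55 with rapamycin at day 7. It spread far wider with rapamycin at day 21 (4.72, 0.569 and 2.89) than with vehicle (1.92, 1.85 and 2.31). The miRs most like miR-150-5p were miR-142-5p (r = 0.90), miR-142-3p (0.86) and miR-21-5p (0.83). Both miR-142 arms, made by blood cells in general, also came first in the 10 listed libraries (r = 0.92 and 0.87).

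The miR-181 members did not vary as 1 group. miR-181a-5p was most like miR-143-3p (r = 0.79), miR-23b-3p (0.74) and miR-99a-5p (0.72). miR-181b-5p had no close match, with miR-186-5p (0.64), miR-872-5p (0.60) and miR-98-5p (0.59) highest. miR-181c-5p was most like miR-425-3p (0.89), miR-19b-3p (0.86) and miR-93-5p (0.84), and miR-181d-5p like miR-92a-3p (0.95), miR-103-3p (0.95) and miR-15a-5p (0.93). miR-181c-5p and miR-181d-5p, whose genes are neighbours, had an r of 0.80 with each other, while miR-181a-5p had -0.42 and -0.28 with them. In the 10 listed libraries the r of miR-181c-5p and miR-181d-5p was 0.39, and the 3 miRs most like miR-181d-5p became miR-98-5p (0.77), miR-191a-5p (0.73) and miR-872-5p (0.68), and its r with miR-92a-3p was 0.59.

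Other miRs with lymphocyte roles gave no call in the treatment comparisons as fitted here. The list held 13 (both miR-142 arms, miR-146a-5p and miR-146b-5p, which restrain NF-κB signalling, 6 miRs of the miR-17 to miR-92 cluster, miR-182, miR-326-3p and miR-28-5p), and 0 of the 13 passed edgeR's test or had an unadjusted p below 0.05 at day 7, at day 21 or with day as a block. Over all 426 miRs the latter share was 2.58%, 2.58% and 3.52%. Their median log2 fold change at day 7 was 0.04, against -0.15 over all 426 miRs. In the listed libraries it was -0.09 against 0. miR-142-5p had the most negative value of the 13 at day 7, -0.86 (SE 0.58). The study itself reports miR-142-3p as differentially expressed at day 7, lower with rapamycin. Here the log2 fold change of miR-142-3p at day 7 was also negative but was not called. It was -0.79 (SE 0.51) with all 12 libraries and -0.84 (SE 0.43) with the 10 listed ones. Of the 9 opposite arms of the lymphocyte set 8 had counts, and none passed at either day or with day as a block. miR-181c-3p held the most, 9 to 36 counts per library, miR-150-3p held 2 to 22, and the remaining 6 held at most 27.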

How the data were processed

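The authors deposited counts of reads per mature miR, not normalised, for 12 libraries. Per the methods and the submitters' processing notes, reads were trimmed with cutadapt 3.3 (minimum length 17 nucleotides), mapped with bowtie 1.3.0 to mRatBN 7.2 (up to 2 mismatches) and assigned with miRDeep2 2.0.1.2 to miRBase 22.1 (up to 1 mismatch). Of the rows, 426 miRs were analysed and 10 spike-ins left out. Of the spike-ins 7 calibrators served as an alternative scale.

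The 7 lymphocyte miRs and all lists were chosen with earlier results of these data known. Every member is named, with the 3 miRs of highest Pearson r for each with a median of at least 10 counts. Counts were tested over all miRs with edgeR 4.0.16 in R 4.3.3 (TMM, quasi-likelihood, two-sided) with a mean per group or with day as a block. As in the study, an abundance cutoff (quantiles up to 0.95 in steps of 0.01, the one giving most calls) preceded Benjamini-Hochberg adjustment, and an adjusted p below 0.05 was called. The labels call the 3 libraries per group biological replicates. Log2 CPM for correlations and permutations used a prior count of 2. Alternatives were the 10 listed libraries, filters, scalings, DESeq2 1.42.0, the legacy fit, fewer groups, a replicate block and leaving out each library. The permutation over the 10 listed libraries was added after the data were seen. The scripts were tested on simulated data. The floor of 3 counts covers counting error only, since reads carried no molecular identifiers.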

Additional observations from a re-analysis of the deposited data

How the results depend on the processing

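The number of the 7 miRs called at day 7, 1 with all 12 libraries (miR-150-5p), was 2 in the 10 listed libraries and 0 without the abundance cutoff, with edgeR's filterByExpr, with calibrator spike-ins as library size, with DESeq2 and with the replicate block, and 0 to 2 with 1 library left out. The log2 fold change of miR-150-5p at day 7 ran from -2.28 to -1.15 with 1 library left out and from -2.07 to -1.62 over the other settings. Its adjusted p was 0.0485 with median-of-ratios factors, 0.0492 with the legacy fit, 0.0493 with only the compared groups, 0.0977 without cutoff, 0.74 with the replicate block, 0.87 with calibrators, 0.99 with filterByExpr and 1 with DESeq2. The labels give no pairing of animals by replicate number. Deviations of libraries with the same number had a mean correlation of -0.33 over 6 pairs of the same day (-0.78 to 0.31). That correlation cannot decide on pairing, since the unlisted libraries carry different replicate numbers at day 7. No other call changed under the block. Leaving out 1 library gave 0 to 1 calls with day as a block, in the difference between days and in the change with rapamycin, and 0 elsewhere. The difference between days gave 1 call in the listed libraries. The calibrator scale moved the median of all miRs from -0.15 to -0.81 at day 7 and, for day 21 against day 7, from -0.41 to -1.92 with vehicle and from -0.11 to -1.54 with rapamycin. On it the day change with vehicle gave 1 call (miR-181a-5p, -2.58) and was -2.03 for miR-181b-5p and -1.16 for miR-181c-5p, and that with rapamycin was -0.32, -1.51, -0.75 and -0.48 for miR-150-5p, miR-181b-5p, miR-181c-5p and miR-181d-5p, all but the first (miR-181a-5p) of opposite sign to the TMM fits. With 1 library left out miR-150-5p ran from -0.66 (without rapamycin day 21 replicate 1) to 0.53 at day 21 and from -1.10 to 0.029 (without vehicle day 7 replicate 3) in the vehicle day change. Of 358 fold changes refitted under other settings, 18 further ones changed sign with both values within 1 SE of 0.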
